A study of Mus musculus with 2 samples.

Results

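The collagen genes of mouse alveolar bone are described here, in 2 single-cell RNA libraries of a study of orthodontic tooth movement. A gene was a member if its symbol consists of Col, a number, a and a number, and 44 of the 56419 gene symbols in the files met that rule. The mice were C57BL/6J, 6 to 8 weeks old. The study split 12 mice at random, per its labels. In the first group a nickel-titanium spring drew the upper right first molar forward at 25 g, and the controls carried the spring unloaded. Bone up to 1 mm from the socket was taken on day 7, and 6 mice were pooled for each group. The labels do not say which group either library came from, so the libraries are called library 1 and library 2, no groups were compared, and no test was made.

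A collagen molecule is a triple helix of alpha chains, and each gene encodes a chain. Fibrillar chains build the tension-bearing fibrils of bone and of the periodontal ligament, which ties the tooth root to the alveolar bone, and network, beaded-filament and fibril-associated chains line basement membranes or coat the fibrils. Bone matrix is mainly type I collagen made by osteoblasts, whereas the ligament also contains type III.

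The files hold counts of unique molecular identifiers (UMIs), in total 77546284 in library 1 and 116742643 in library 2 for named genes. After filtering, 9474 and 11860 cells remained, with median totals of 3217 and 4364.5 UMIs. The cells of the libraries shared 71 barcodes, where 63.5 were to be met by independent draw. Cells were clustered without the collagen genes, and clusters were named as like a cell type only from lists of non-collagen markers. This gave 26 classes, of which 8 were stromal or bone-forming and 16 were of blood lineages, with an endothelial-like and a Schwann-like class besides. Bglap, the osteocalcin gene, stood at 50700 and 53901 counts scaled to 1000000 UMIs of the class (CPM) in the osteoblast-like class. The ligament fibroblast-like cells fell into a cluster led by Tnn, Postn and Aspn, called the Tnn cluster, and a further cluster, called the Egr1 cluster. The Egr1 cluster was led by Gm15398, followed by Egr1, Fos and Osr2. Egr1 and Fos are immediate-early genes that cell stress can raise. Stromal clusters that could not be named are called the Apod and Prss23 clusters after their first leading gene. An unnamed cluster led by Ighg2b, Cd79b and Niban3, with 361 and 735 cells, was counted among the 16 blood-lineage classes because it was not stromal. Rankings use the 25 classes with at least 30 cells in each library. The other, a stromal class with fewer cells in library 1, enters the totals and is not reported on its own.

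Collagen transcripts made up 3.23% of the UMIs in cells of library 1 and 2.68% in library 2, and nearly all of them came from stromal cells. The stromal and bone-forming classes had 25.2% and 29.1% of the cells and 95.4% and 97.0% of the collagen UMIs. In osteoblast-like cells, collagen took 13.3% of all UMIs in library 1 and 12.2% in library 2. These cells were the highest of all 26 classes in both libraries. All intervals are exact, at 95%, and cover counting error only.

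The Tnn cluster followed with 8.28% and 10.4%, and the Egr1 cluster had 7.23% and 9.06%. Next came the Apod cluster with 3.75% and 3.72% and the Spp1- and Mmp13-rich stroma with 3.34% and 3.42%. The Prss23 cluster had 2.79% and 2.22%, and the pericyte-like class had 1.38% and 0.508%. Endothelial-like cells, at 0.584% and 0.386%, and Schwann-like cells, at 0.638% and 0.312%, were the lowest classes outside the blood. Over all blood-lineage classes, collagen made up 0.190% and 0.0922% of UMIs. Cells within a class differed widely. In osteoblast-like cells, the middle of the distribution ran from 6.94% at the lower quartile to 15.1% at the upper quartile in library 1, and from 6.04% to 14.3% in library 2.

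**Figure D1:**
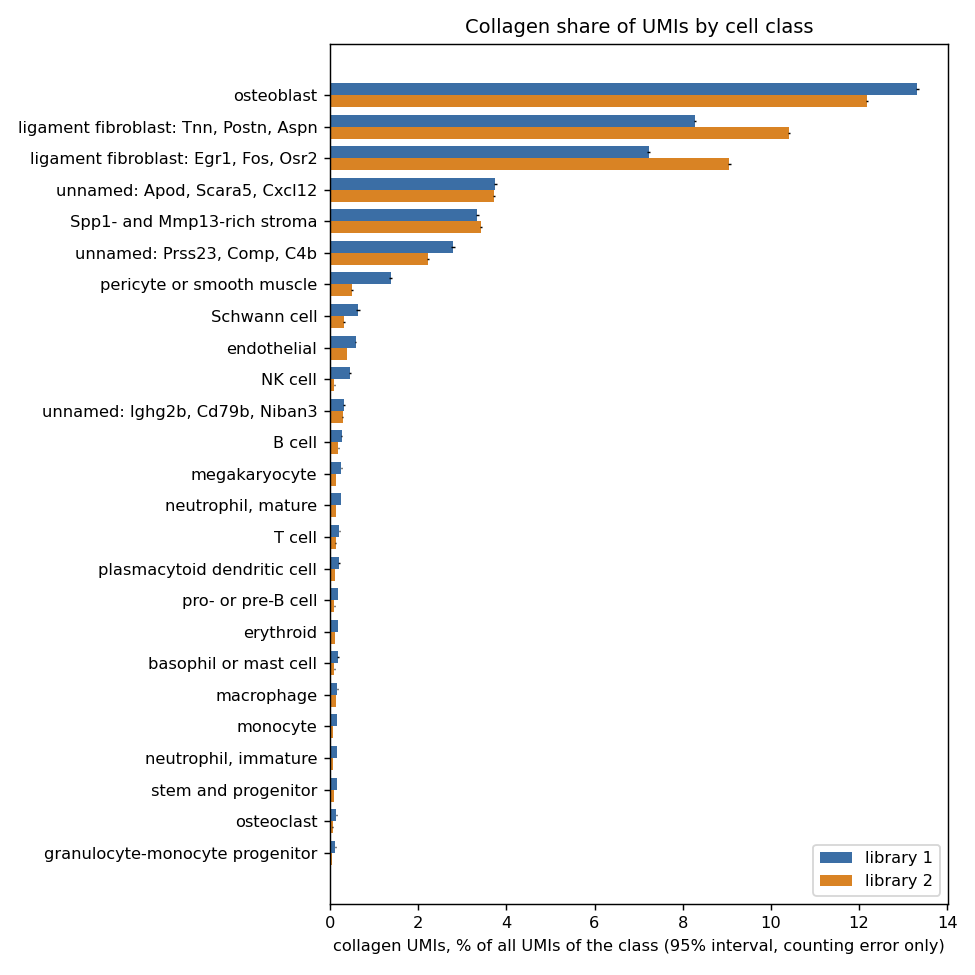
Bars show the share of each of 25 classes' UMIs that came from the 44 collagen genes, in percent, for library 1 and library 2, with 95% intervals for counting error. The osteoblast-like class, at 13.3% and 12.2%, lies above every other class, and the blood-lineage classes lie near the foot of the axis.

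Of the 44 members, 31 were measured, meaning that some class of each library gave 20 or more UMIs. For 23 of these 31, or 74.2%, the same class was highest in both libraries, against 54.1% of the 13708 genes of all kinds that were measured. The highest class was stromal or bone-forming for 18 members, or 58.1%, against 8.67% of all measured genes. A lead of at least 2-fold over every other class in both libraries was seen for 9 members, or 29.0%, against 10.8% of all measured genes. A gene could be measured through its highest class alone, so these shares describe the measured members and not all 44. The osteoblast-like class was highest for 9 members, the Tnn cluster for 4, the Apod cluster and Schwann-like cells for 3 each, endothelial-like cells for 2, and the Prss23 cluster and the Spp1-rich stroma for 1 each. No measured member was highest in a blood-lineage class in both libraries. The median lead of the 23 members, as the lower ratio of the libraries, was 1.58-fold, and for all genes with a shared highest class it was 1.28-fold.

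**Figure D2:**
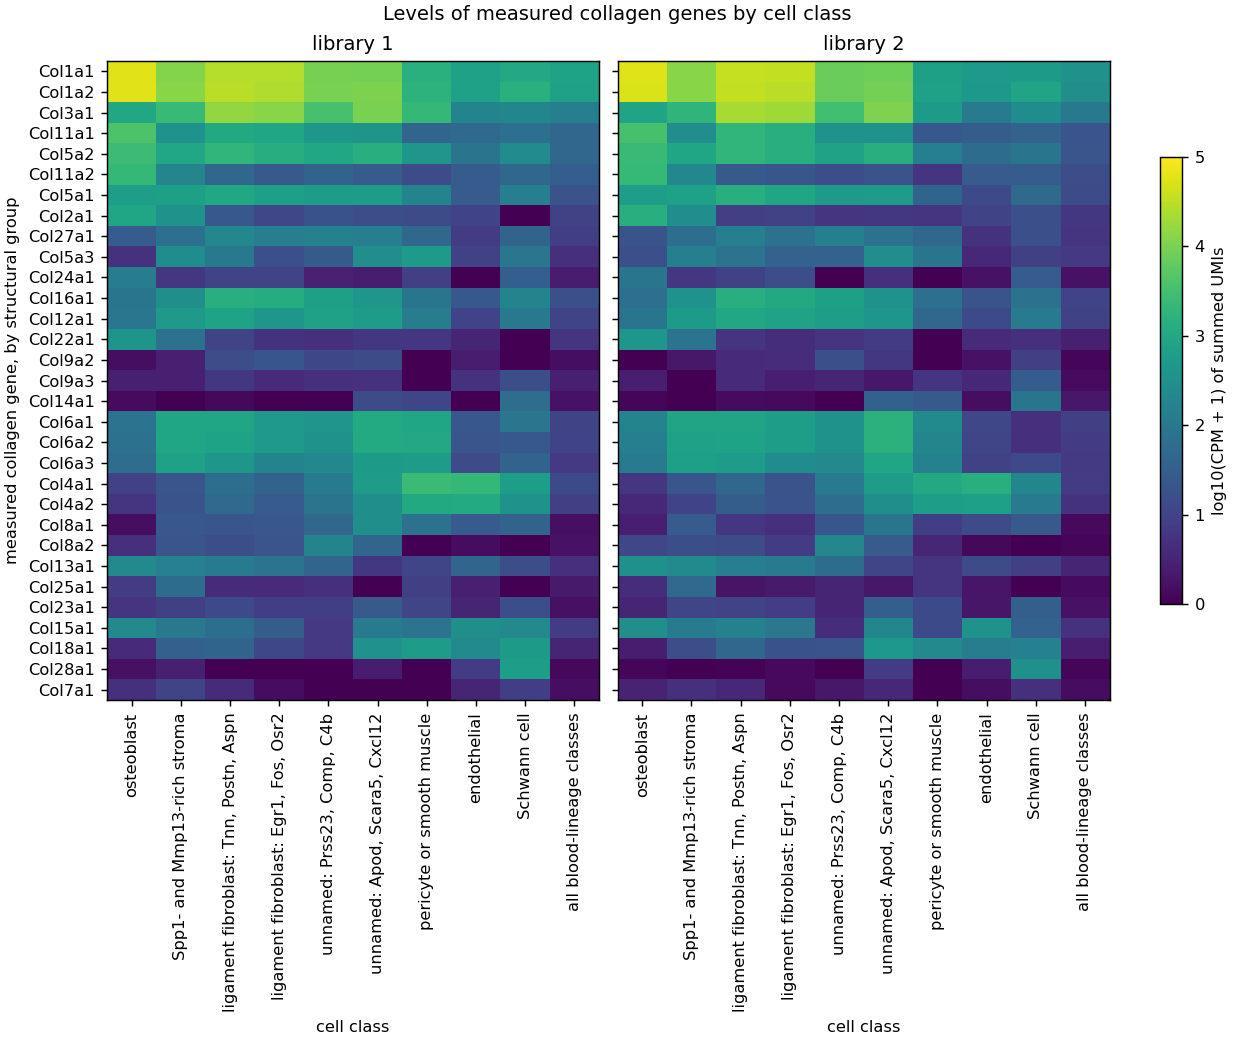
Each cell of the map is the level of a measured collagen gene, as log10(CPM + 1) of summed UMIs, in a cell class (columns) and gene (rows, ordered by structural group), for library 1 on the left and library 2 on the right. Col1a1 and Col1a2 are brightest in the stromal classes other than the pericyte-like class. Col11a2, Col2a1, Col22a1 and Col24a1 stand out in osteoblast-like cells, and Col28a1 stands out in Schwann-like cells.

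Among the 11 fibrillar chains, all were measured, and 9, or 81.8%, kept their highest class in both libraries, against 54.1% of all measured genes. Col1a1 and Col1a2 encode the chains of type I collagen, the main fibril of bone. Col1a1 was at 60836 CPM (445714 UMIs) and 57773 CPM (328749 UMIs) in osteoblast-like cells, and at 28289 and 36476 CPM in the Tnn cluster. Col1a2 was at 59654 and 51156 CPM in osteoblast-like cells and at 30072 and 35393 CPM in the Tnn cluster. Osteoblast-like cells were thus 2.15-fold and 1.58-fold above the Tnn cluster for Col1a1, beyond counting error in both libraries. Osteoblast-like cells held 66.6% of Col1a1 UMIs in library 1 and 39.0% in library 2.

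Levels were not scaled to transcript length, so chains are compared with each other only through their UMI ratio, in which length cancels when the same pair is followed from class to class. The ratio of Col1a2 to Col1a1 hardly moved, from 0.928 to 1.15 over 7 stromal classes in library 1 and from 0.877 to 1.12 in library 2.

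The ratio of Col3a1, the type III fibril chain of pliable tissues, to Col1a1 moved 87.4-fold over the same classes in library 1 and 94.5-fold in library 2. It was 0.0166 (0.0162 to 0.0170) and 0.0144 (0.0140 to 0.0149) in osteoblast-like cells. In the Spp1-rich stroma it was 0.199 and 0.138, in the Egr1 cluster 0.459 and 0.561, and in the Tnn cluster 0.544 and 0.595. It came to 1.08 and 1.36 in the Apod cluster. In pericyte-like cells it was 1.45 (1.30 to 1.62) in library 1 and 0.761 (0.633 to 0.914) in library 2. In these counts their place next to the Apod cluster thus depended on the library. Pericyte-like cells had only 575 and 276 Col1a1 UMIs, and free RNA, read from barcodes of 10 to 100 UMIs, was not subtracted. Its own ratio was 0.160 and 0.329, and blood-lineage classes together had Col1a1 at 788 and 372 CPM. The order of the ratios after subtraction was not tested. Col3a1 itself was highest in the Tnn cluster, at 15395 and 21689 CPM, followed by the Egr1 cluster at 12720 and 19108 CPM, and stood at 1011 and 834 CPM in osteoblast-like cells. Its log2 lead turned to -0.54 with barcodes of at least 500 UMIs and to -0.44 with collagen genes among the variable genes in clustering, with other classes then higher in at least 1 library; the cause was not tested.

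The 250 bases before the annotated starts of Col1a2 and Col3a1, a type I and a type III chain, are shown with Col11a2, the fibrillar chain with the largest lead in osteoblast-like cells. They are from RefSeq on GRCm38.p6, plus strand, in lower case with capitals for 4 motifs on either strand. The CCAAT box was searched as CCAAT, the TATA box as the letters TATAAA, the GC box of Sp factors as the letters GGGCGG and the core bound by Runx factors as the letters AACCACA. The windows are chr6:4505368-4505617 for Col1a2, chr1:45311288-45311537 for Col3a1 and chr17:34038888-34039137 for Col11a2, all upstream of the gene.
Col1a2: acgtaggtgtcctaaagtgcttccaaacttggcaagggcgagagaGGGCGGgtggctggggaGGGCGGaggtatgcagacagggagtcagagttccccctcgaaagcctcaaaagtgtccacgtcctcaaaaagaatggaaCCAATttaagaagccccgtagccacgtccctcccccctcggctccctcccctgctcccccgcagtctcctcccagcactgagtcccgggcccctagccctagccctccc
Col3a1: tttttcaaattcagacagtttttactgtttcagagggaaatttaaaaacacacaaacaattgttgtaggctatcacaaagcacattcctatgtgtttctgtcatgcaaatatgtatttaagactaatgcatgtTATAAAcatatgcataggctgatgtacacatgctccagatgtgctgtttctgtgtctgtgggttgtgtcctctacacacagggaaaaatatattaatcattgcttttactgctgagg
Col11a2: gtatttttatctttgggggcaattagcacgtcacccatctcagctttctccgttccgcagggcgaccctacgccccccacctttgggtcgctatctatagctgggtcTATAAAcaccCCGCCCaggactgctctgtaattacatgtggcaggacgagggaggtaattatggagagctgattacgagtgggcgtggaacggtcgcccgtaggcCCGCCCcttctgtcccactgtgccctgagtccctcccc

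The Col1a2 window holds 1 CCAAT box and 2 GC boxes and no TATA box. The Col3a1 window holds a TATA box alone, and the Col11a2 window holds 1 TATA box and 2 GC boxes. None of these 3 windows holds the Runx core. RefSeq promoters were at hand for 35 of the 44 members, with 38 windows, of which 13 hold the CCAAT box, 5 the TATA box, 22 the GC box and 1 the Runx core. Of 32851 windows of the same length from all genes outside chromosome 18, 33.9% hold the CCAAT box, 12.4% the TATA box, 32.7% the GC box and 4.40% the Runx core. These motifs did not overlap in the windows printed, and a match describes letters only.

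**Figure D3:**
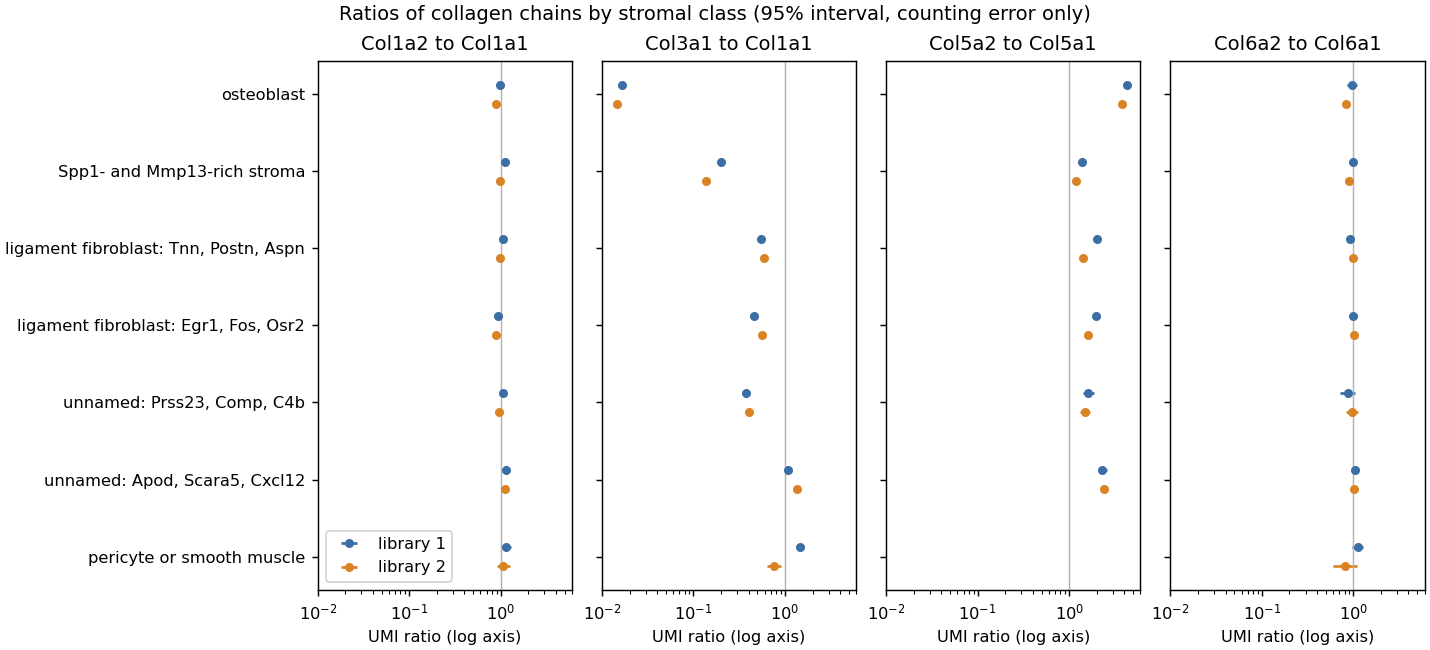
Points show the UMI ratio of a pair of collagen chains (log axis) in 7 stromal classes for library 1 and library 2, with 95% intervals for counting error where wider than the point. The Col1a2 to Col1a1 and Col6a2 to Col6a1 ratios stay near 1, whereas Col3a1 to Col1a1 runs from 0.0166 and 0.0144 in osteoblast-like cells to above 1 in the Apod cluster.

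Col5a1 and Col5a2 encode type V chains, which start and limit the width of type I fibrils. Their highest classes differed. Col5a2 was highest in osteoblast-like cells at 2643 and 2425 CPM, against 1915 and 1947 CPM in the Tnn cluster. Col5a1 was highest in the Tnn cluster at 952 and 1386 CPM, against 609 and 646 CPM in osteoblast-like cells. The log2 lead of the Tnn cluster turned to -0.078 and -0.058 under the same settings as for Col3a1. The Col5a2 to Col5a1 ratio was therefore 4.34 (4.20 to 4.48) and 3.76 (3.62 to 3.90) in osteoblast-like cells. In the other stromal classes with enough UMIs it lay between 1.37 in the Spp1-rich stroma and 2.30 in the Apod cluster in library 1, and between 1.19 and 2.42 in the same classes in library 2. Col5a3, the third type V chain, had no shared highest class. It was at 487 CPM in pericyte-like cells of library 1 and 87.2 CPM in those of library 2, and at 288 and 286 CPM in the Apod cluster, with 4.10 and 15.5 CPM in osteoblast-like cells.

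Type XI chains sit inside fibrils and are best known from cartilage, where they go with type II collagen, the product of Col2a1. All 3 genes of this set were highest in osteoblast-like cells. Col11a1 was at 4012 and 3583 CPM there and at 1071 and 1912 CPM in the Tnn cluster. Col11a2 was at 2154 (2121 to 2188) and 2207 (2168 to 2246) CPM in osteoblast-like cells, against 190 and 218 CPM in the Spp1-rich stroma, the next of the ranked classes. In the Tnn cluster Col11a2 was at 48.5 and 25.5 CPM. The Col11a2 to Col11a1 ratio was 0.537 and 0.616 in osteoblast-like cells and 0.0453 and 0.0134 in the Tnn cluster, so ligament-like cells had Col11a1 with little Col11a2.

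Col2a1 was at 852 (831 to 874) and 1371 (1341 to 1402) CPM in osteoblast-like cells and at 347 and 284 CPM in the Spp1-rich stroma. Every other ranked class had at most 22.5 CPM in library 1 and 15.9 CPM in library 2. Genes that define chondrocytes were at or near 0 in the osteoblast-like class. Cnmd, Matn1 and Snorc had 0 UMIs in both libraries, Acan had 19 and 31, Hapln1 25 and 33, Matn3 1 and 2, and Epyc 0 and 3. Sox9, a transcription factor of cartilage that other cells also use, had 350 and 225 UMIs. Only 6 and 7 cells of all classes had 3 or more of the 8 chondrocyte markers, and none of them was in the osteoblast-like class. When cells were placed one by one by their markers, 0 cells of either library were called chondrocytes.

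Col2a1 was spread unevenly over osteoblast-like cells. In library 1, 416 of 836 cells had a Col2a1 UMI, and in library 2, 349 of 689. With cells thinned to 1000 UMIs, the share was 27.6% (24.5 to 30.8) and 35.0% (31.5 to 38.8). It was 1.20% and 0.564% in mature neutrophil-like cells, which were taken as the background. The source of Col2a1 UMIs in neutrophil-like cells was not tested. Thinning left out 38 and 7 osteoblast-like and 171 and 21 neutrophil-like cells, and unthinned neutrophil-like shares were 2.61% and 2.22%. Median depths were 7147 and 6360 UMIs in osteoblast-like cells and 2085 and 2882 UMIs in mature neutrophil-like cells. The top 10% of osteoblast-like cells held 68.3% and 68.2% of Col2a1 UMIs, against 36.5% and 37.3% of Col1a1 UMIs, where a cell's total UMIs also move the figure. The most Col2a1 UMIs in a cell were 146 and 238. Col11a2 was more widely detected, in 76.3% and 77.7% of thinned osteoblast-like cells. It was found in 80.0% of those with Col2a1 and 74.9% of those without in library 1, and in 91.6% and 70.2% in library 2.

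**Figure D4:**
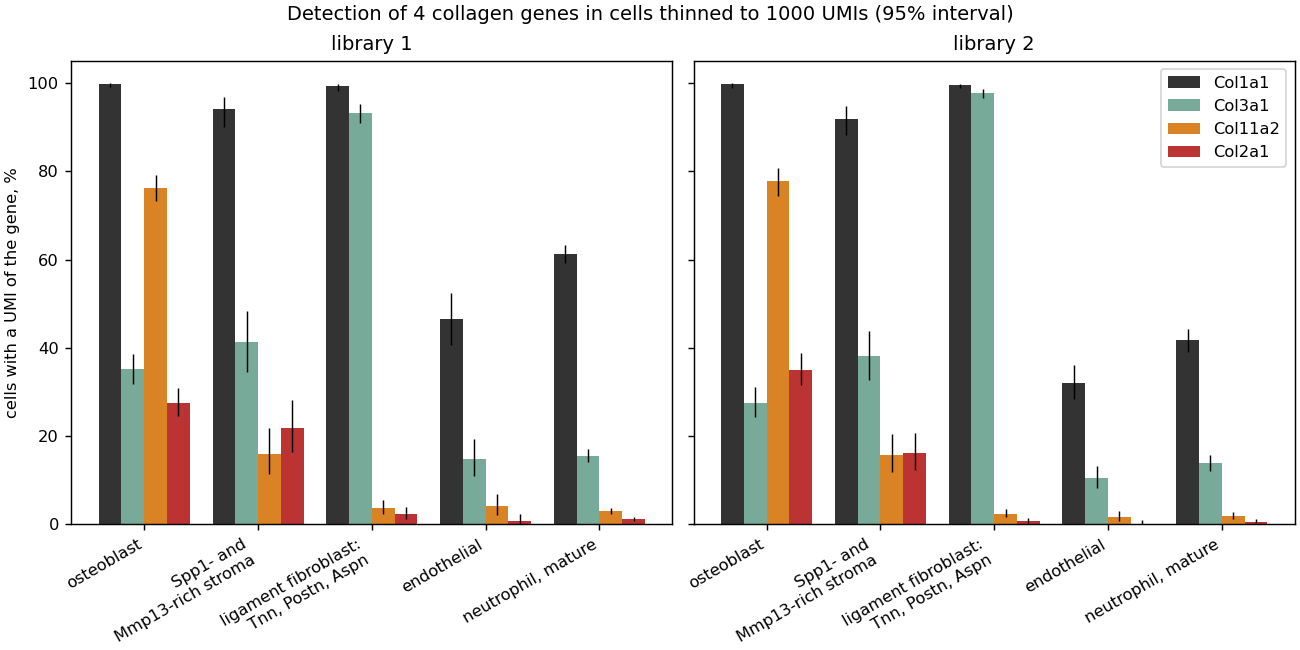
Bars show the percent of cells with at least 1 UMI of Col1a1, Col3a1, Col11a2 or Col2a1 after each cell was thinned to 1000 UMIs, in 5 classes of library 1 and library 2, with exact 95% intervals. Col11a2, at 76.3% and 77.7%, and Col2a1, at 27.6% and 35.0%, stand above their neutrophil-like background in osteoblast-like cells, while Col1a1 was found in 61.3% and 41.7% of mature neutrophil-like cells.

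The remaining fibrillar chains are minor. Col24a1, a fibrillar chain of developing bone, was at 122 (114 to 130) and 85.4 (78.0 to 93.4) CPM in osteoblast-like cells. The next class was Schwann-like, at 29.9 and 27.7 CPM from 4 and 7 UMIs. Col27a1, a cartilage-associated fibrillar chain, was at 209 and 140 CPM in the Tnn cluster and at 153 and 140 CPM in the Prss23 cluster, so the highest class changed between libraries. The lead was beyond counting error in library 1 and within it in library 2.

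Fibril-associated chains coat fibrils and link them to other matrix. Of 9 such members, 6 were measured and 5 of these, or 83.3%, kept their highest class, against 54.1% of all measured genes. Col12a1, known from tendon and ligament under load, was highest in the Tnn cluster at 787 and 993 CPM, and was at 714 and 611 CPM in the Prss23 cluster and 89.8 and 88.0 CPM in osteoblast-like cells. Its lead over the next class was within counting error in library 1 and beyond it in library 2, where the Egr1 cluster was next at 754 CPM, and turned to -0.33 on the log2 scale with collagen genes used in clustering. Col16a1, which binds fibrils and integrins, was at 1447 and 1377 CPM in the Tnn cluster, 1231 and 1092 CPM in the Egr1 cluster and 85.9 and 66.1 CPM in osteoblast-like cells, and its log2 lead turned to -0.11 with barcodes of at least 500 UMIs. Both genes were thus lower in osteoblast-like cells than in every other stromal cluster but the pericyte-like class.

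Col22a1, a chain best known from muscle-tendon junctions, went the other way. It was at 382 (368 to 396) and 430 (413 to 448) CPM in osteoblast-like cells, against 74.1 and 80.1 CPM in the Spp1-rich stroma, and 9.44 and 4.86 CPM in the Tnn cluster. Col14a1, a chain that often accompanies Col12a1 in fibroblasts, had only 51 and 158 UMIs in all. It was at 59.8 and 87.2 CPM in Schwann-like cells and 19.4 and 37.4 CPM in macrophage-like cells, and had 1 UMI in the Tnn cluster of library 1. The Apod cluster had 13.8 and 35.4 CPM.

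Type IX chains were scarce. Col9a2 reached 20.9 CPM in the Egr1 cluster of library 1 and had 14 UMIs in the Prss23 cluster, its highest of library 2. Col9a3 was highest in Schwann-like cells from 2 and 7 UMIs, a lead within counting error in library 1, and its log2 lead turned to -0.23 with the mean over cells.

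Type VI collagen forms beaded filaments around cells, from a Col6a1, a Col6a2 and usually a Col6a3 chain. Col6a1 was highest in the Apod cluster, at 1119 and 1630 CPM, and Col6a2 was at 1159 and 1668 CPM there. At a coarser clustering, Leiden resolution 0.5, these log2 leads turned to -0.31 and -0.53. Osteoblast-like cells had 78.9 and 178 CPM of Col6a1, below all other ranked stromal classes. Col6a2 to Col6a1 held between 0.864 and 1.11 over 7 stromal classes in library 1 and between 0.811 and 1.03 in library 2. Col6a3 to Col6a1 was more variable, lowest in the Egr1 cluster at 0.373 (0.330 to 0.422) and 0.455 (0.419 to 0.494), and highest in the Spp1-rich stroma at 0.789 (0.720 to 0.865) and 0.802 (0.742 to 0.866). Col6a3 was highest in the Spp1-rich stroma of library 1 at 713 CPM and in the Apod cluster of library 2 at 880 CPM.

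Col4a1 and Col4a2 encode the common chains of type IV collagen, the network of basement membranes. Their genes lie head to head on chromosome 8. The annotated RefSeq starts face each other across 22 transcribed bases, chr8:11312805-11312826 on GRCm38.p6. The stretch is shown on the Col4a2 strand because both transcripts begin there. Motifs are not marked in it, and it holds the letters GGGCGG.
Col4a1 and Col4a2: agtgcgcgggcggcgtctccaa

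Col4a1 was at 2520 (2364 to 2683) and 1052 (954 to 1157) CPM in pericyte-like cells and at 2131 (2071 to 2193) and 1408 (1371 to 1445) CPM in endothelial-like cells, so the order of these classes differed between libraries. Col4a2 was at 1134 and 655 CPM in endothelial-like cells and 1104 and 618 CPM in pericyte-like cells, a difference within counting error in both libraries. The stromal classes together, pericyte-like cells included, held 26.6% and 25.1% of Col4a1 UMIs, where they held 96.0% and 97.5% of Col1a1 UMIs. Col4a1 was also found in the Apod cluster, at 586 and 542 CPM, and in Schwann-like cells, at 636 and 194 CPM. Osteoblast-like cells had 8.74 and 5.27 CPM, near the level over all blood-lineage classes. In thinned endothelial-like cells, Col4a2 was found in 67.4% of those with Col4a1 and 34.2% of those without in library 1, and in 53.7% and 28.6% in library 2. The strand setting of the counting is not given in the sources used here, so reads from the shared start could belong to either gene.

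Of the chains of specialised basement membranes, none reached 20 UMIs in a class in both libraries. Col4a5 came closest, with 15 of 36 UMIs in pericyte-like cells of library 1 and 27 of 44 in library 2, or 38.7 and 67.3 CPM. Col4a6, its head-to-head neighbour on the X chromosome, had 2 of 10 and 7 of 12 UMIs there. Col4a4 had 6 of 18 and 3 of 8, and Col4a3 had 7 of 16 and 1 of 7.

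Col8a1 and Col8a2 encode chains of type VIII, a hexagonal network of vessel walls and Descemet's membrane. Col8a1 was highest of the ranked classes in the Apod cluster, at 310 and 86.9 CPM. Col8a2 was highest in the Prss23 cluster, at 182 (147 to 222) and 202 (173 to 234) CPM, against 41.3 and 26.6 CPM in the Apod cluster. The chains of this family thus peaked in different clusters. With cells placed one by one by their markers, the log2 leads turned to -2.41 for Col8a1 and -1.12 for Col8a2.

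Col13a1, a transmembrane collagen found at cell adhesions, was at 250 and 317 CPM in osteoblast-like cells and 148 and 248 CPM in the Spp1-rich stroma. Col25a1, a transmembrane collagen known from neurons and motor innervation, was at 56.9 (44.0 to 72.4) and 49.6 (39.8 to 61.1) CPM in the Spp1-rich stroma. Osteoblast-like cells had 6.28 and 3.52 CPM of it. It was found in 4.85% and 6.77% of thinned cells of that stroma and in 0 of 2171 and 1 of 1419 mature neutrophil-like cells. Col23a1 had 157 and 251 UMIs in all and no shared highest class.

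Col15a1 and Col18a1 belong to the multiplexins, which lie in basement membrane zones, and the end of Col18a1 gives endostatin. Col15a1 was at 306 and 356 CPM in endothelial-like cells and 229 and 289 CPM in osteoblast-like cells. Col18a1 was highest in pericyte-like cells of library 1 at 583 CPM and in the Apod cluster of library 2 at 462 CPM, with 531 and 154 CPM in Schwann-like cells. Osteoblast-like cells had 22 and 8 UMIs of it.

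Col28a1, a small beaded chain known from peripheral nerve, had the largest lead of the 23 members. It was at 606 (481 to 753) CPM in 44 Schwann-like cells of library 1 and at 317 (251 to 395) CPM in 66 of library 2. The next class was endothelial-like at 6.35 CPM in library 1 and the Apod cluster at 6.64 CPM in library 2. Schwann-like cells made up 0.464% and 0.556% of cells and held 71.7% and 72.7% of Col28a1 UMIs. In thinned cells it was found in 38.1% and 31.2% of Schwann-like cells, and in 0 of 2171 and 0 of 1419 mature neutrophil-like cells, which allows a share of up to 0.170% and 0.260% of cells with a UMI at that depth and sets no limit on cells that express the gene. Col7a1, the chain of anchoring fibrils, had 76 and 77 UMIs and no shared highest class.

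The 13 members that were not measured had 4 to 66 UMIs in a library. Besides the 4 type IV chains, they were Col20a1 with 62 and 66 UMIs, Col6a5 with 35 and 56, Col19a1 with 20 and 12, Col26a1 with 18 and 12, Col9a1 with 15 and 16, Col17a1 with 9 and 8, Col6a6 with 11 and 6, Col6a4 with 4 and 5, and Col10a1 with 8 and 6. Col10a1 is the chain of hypertrophic cartilage, and osteoblast-like cells held 4 of its 8 UMIs and 5 of its 6. Col17a1 is that of hemidesmosomes in epithelium, and no class had more than 3 and 4 UMIs of it. These counts were too low to rank classes at this depth.

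The pericyte-like class had the largest gap between libraries among the stromal classes. Besides its collagen share of 1.38% and 0.508%, it had Col3a1 at 2153 and 524 CPM, Col6a1 at 926 and 237 CPM and Col1a1 at 1483 and 688 CPM. The class had 88 and 123 cells, and the median cell had 0.609% and 0.368% collagen, a smaller gap than that of the summed UMIs. What this gap goes with was not tested, since neither library is tied to a group.

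Genes that make, crosslink or bind collagen were followed in 3 lists. Of 21 genes for modifying and folding the helix, all were measured, and 12, or 57.1%, shared a highest class between libraries, against 54.1% of all measured genes. None led by 2-fold, against 10.8%, and 7, or 33.3%, were highest in a stromal class, against 8.67%. Serpinh1, the collagen chaperone Hsp47, was at 2543 CPM in the Egr1 cluster of library 1 and 2783 CPM in osteoblast-like cells of library 2. P4hb, a subunit of prolyl hydroxylase that also folds other proteins, was highest in the Tnn cluster of library 1 at 662 CPM and at 768 CPM in granulocyte-monocyte progenitor-like cells in library 2.

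Of 16 genes for export, trimming and crosslinking, 15 were measured. Of these, 10, or 66.7%, kept their highest class, 3, or 20.0%, led by 2-fold and 9, or 60.0%, were highest in a stromal class, against the same 54.1%, 10.8% and 8.67% of all measured genes. Sparc, a collagen-binding matrix protein, was at 52476 CPM in osteoblast-like cells of library 1 and 49577 CPM in the Tnn cluster of library 2. Lox, a lysyl oxidase that crosslinks fibrils, was at 1457 and 1449 CPM in osteoblast-like cells. The genes with a 2-fold lead, named here after their values were seen, were the lysyl oxidases Loxl2 and Loxl4 in osteoblast-like cells and the procollagen protease Adamts14 in NK-like cells. Loxl2 was at 1029 and 1173 CPM in osteoblast-like cells, against 262 and 473 CPM in the Tnn cluster. Adamts14 was at 141 and 70.8 CPM in NK-like cells.

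Of 12 collagen receptors, all were measured. Of these, 10, or 83.3%, kept their highest class, 4, or 33.3%, led by 2-fold and 5, or 41.7%, were highest in a stromal class, where all measured genes had 54.1%, 10.8% and 8.67%. Itgb1, the common beta subunit of the collagen-binding integrins, was at 1063 and 970 CPM in pericyte-like cells. Adgrg1, an adhesion receptor that binds type III collagen, was at 479 and 518 CPM in megakaryocyte-like cells. Of the receptors with a shared highest class, 5 were highest outside the stroma. They were Adgrg1 and Gp6, the platelet collagen receptor, in megakaryocyte-like cells, Ddr1 and Adgrg6 in Schwann-like cells, and Lair1 in plasmacytoid dendritic-like cells, named after their values were seen.

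Over the 25 ranked classes, genes most like a chain were sought among 8880 others by Pearson's r of log2(CPM + 1), as a description, since classes of a library share free RNA and depth. For Col1a1 they were Dcn, Serpinf1 and Lum, with r between 0.940 and 0.969. For Col3a1 they were Postn, Pcolce and Htra1, with r between 0.944 and 0.975. Col12a1 shared Pcolce and Postn with Col3a1 and had Tnc besides, and Col6a1 was most like Htra1, Pcolce and Timp1. For Col4a1 they were Olfml2a, Slc12a2 and Nr2f2, with r between 0.864 and 0.897. Col14a1 had no close match, with r at most 0.779 for Sirt2, followed by Pmp22 and Axl.

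Collagen RNA was also found in blood cells, where no measured member had its shared highest class. Barcodes of 10 to 100 UMIs, too few for a cell, held Col1a1 at 12404 and 9493 CPM and Col3a1 at 1982 and 3121 CPM. All blood-lineage classes together had Col1a1 at 788 and 372 CPM and Col3a1 at 141 and 103 CPM. Over the 16 chains with enough UMIs, the blood level was 0.0594 to 0.0984 of the free level in library 1 and 0.0331 to 0.0847 in library 2. The Col3a1 to Col1a1 ratio was 0.160 and 0.329 in free RNA and 0.179 and 0.277 in blood-lineage cells. Single blood-lineage classes ran from 0.146 to 0.307 in library 1 and from 0.214 to 0.534 in library 2. Col1a2 to Col1a1 was 0.914 and 0.894 in free RNA against 0.911 and 0.798 in blood-lineage cells. Col11a2 to Col11a1 was 0.463 and 0.376 against 0.676 and 0.713, and Col5a2 to Col5a1 was 2.86 and 2.06 against 2.36 and 1.49. Why the pairs differed was not tested. Col1a1 in endothelial-like cells was at 731 (696 to 768) CPM in library 1, below the blood level, and at 493 (471 to 515) CPM in library 2, above it.

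**Figure D5:**
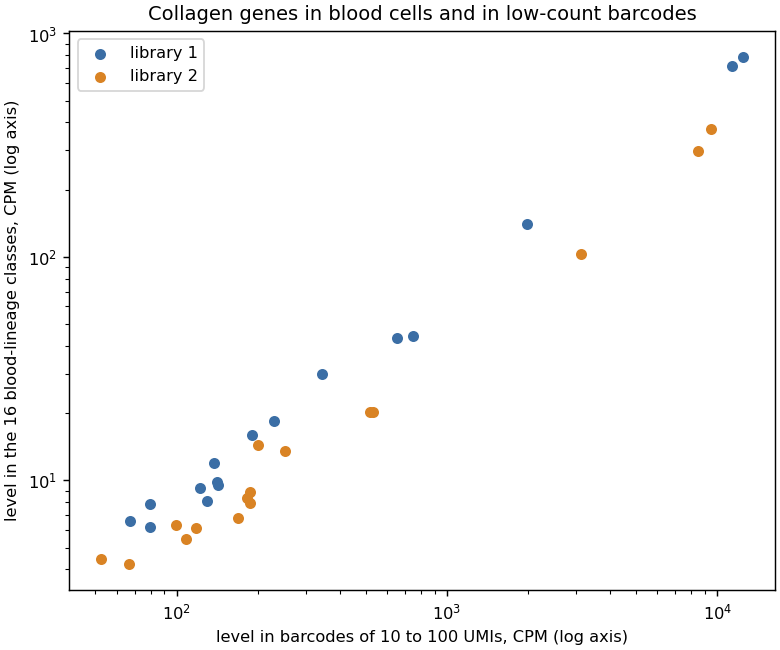
Each point is 1 of 16 collagen genes, with its level in barcodes of 10 to 100 UMIs on the horizontal log axis and its level over the 16 blood-lineage classes on the vertical log axis, both in CPM, for library 1 and library 2. The points of each library lie along a line, with the blood level at 0.0594 to 0.0984 of the free level in library 1 and 0.0331 to 0.0847 in library 2.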

How the data were processed

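The deposited files are unfiltered sparse matrices of UMI counts per gene and barcode for 2 libraries, together with feature and barcode lists. Per the submitters' processing notes, FastQC 0.11.9 and the builds GRCh38 and mm10 were used; aligner, counter and strand setting were not given in the sources used here. Per the labels' protocols, bone was digested for 60 min with a dissociation kit and freed of red cells by lysis, so cells that resist digestion may be missed. The 43167 features without a symbol held 0.636% and 0.459% of UMIs and were left out.

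Barcodes were cells at 777 and 933 UMIs or more, with at least 200 genes and at most 20% mitochondrial UMIs. Scrublet's own threshold marked 7 and 187 cells, which in library 1 is under 0.5%, so instead the top 5% by score were dropped (499 and 624), and doublets may remain. Clustering used scanpy 1.11.5 with 2000 variable genes (no collagen genes), 30 components, 15 neighbours and Leiden resolution 1.0, without batch correction. A cluster was named after a marker list with 3 or more genes, and 50% or more of the list, raised 3-fold or more, unless another list had as many genes among its 10 leading genes. Names say only what the cells resemble. Phex and Smpd3, also on the odontoblast list, were among the leading genes of the osteoblast-like class.

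Class levels are CPM of the UMIs summed over the cells of a class in a library. Levels have exact Poisson and shares exact Clopper-Pearson 95% intervals, for counting error only. For ratios, 0.5 UMIs was the floor of a level. A lead was within counting error in a library if its log2 value there did not exceed 0 by 1.96 counting standard errors. Chain ratios needed 50 UMIs of both genes in a class of each library. Cells were thinned to 1000 UMIs for shares, and shallower cells were left out. All 44 members are accounted for; the 2 most abundant genes of each pathway list, and the 3 genes most like each of 6 chains, are named. The members and lists were chosen with earlier results of these data known. One listed symbol, Ctage5, did not match.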

Additional observations from a re-analysis of the deposited data

How the results depend on the processing

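Cell calling, doublet removal, clustering, class naming, level, free RNA, class size and count minimum were each varied, and the joining of both ligament clusters was added after seeing the data. The number of collagen genes measured ran from 27 to 44, those with a shared highest class from 19 to 28, and those highest in a stromal class from 13 to 22, against 31, 23 and 18. The number with a 2-fold lead was 9 and ran from 5 to 11, and it was 5 when cells were placed one by one by their markers. For single genes, the log2 lead of the reported highest class over the best other class, as the lower of the libraries, kept its sign in 248 of 271 values, and 14 of 23 genes never turned. With barcodes of at least 500 UMIs it was -0.29 for Col12a1, -0.11 for Col16a1, -0.54 for Col3a1, -0.078 for Col5a1, -0.060 for Col6a1, -0.14 for Col6a2 and -0.16 for Col8a1. With collagen genes among the variable genes the same members were at -0.33, -0.093, -0.44, -0.058, -0.050, -0.28 and -0.18. At resolution 0.5 it was -0.31 for Col6a1, -0.53 for Col6a2 and -0.59 for Col8a1. With cells placed by their markers it was -2.41 for Col8a1 and -1.12 for Col8a2. Col12a1 was at -0.0029 without doublet removal and at -0.086 with the ligament clusters joined, Col8a1 at -0.60 with classes of at least 20 cells, and Col9a3 at -0.23 with the mean over cells. Other causes were not tested. No paired analysis was possible because neither library is tied to a group and each is 1 sample. Depth limits the 13 members that did not reach 20 UMIs in a class of each library.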
